A study of Mus musculus with 6 samples.

Results

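TGF-beta, BMP and activin signalling was described here in CD73+ and CD73- adipose derived mesenchymal stem cells (AD-MSCs) of the mouse through a list of 51 genes, which held ligands, their latent binding proteins, receptors, Smads, secreted antagonists, inhibitors and the Id target genes. The list was drawn up by gene name with earlier results of these data known, so that its shares are descriptions, and 50 members had a probe set that the array's annotation gives to 1 gene symbol, out of 18193 genes measured in that way. Gdf6 had no such probe set. Each gene was read from its brightest probe set, the one with the highest mean over the 6 arrays.

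Both subgroups came from groin fat of C57BL/6 mice. The cells were separated on surface CD73 in a flow cytometer, grown in low sugar DMEM with 10% FBS, and taken for total RNA at the fifth passage. Neither subgroup carried a genetic change or a drug treatment in the sources used here. RNA of 3 CD73+ and 3 CD73- samples was hybridised to Affymetrix mouse expression arrays, 1 sample to an array, and the comparison asked how the transcripts of the 2 subgroups differ. The labels do not say whether the 3 samples of a subgroup were separate cultures or animals, so that the p-values cover the scatter among these 6 arrays alone, and this scatter may be technical. These are sorted cells that had been expanded in culture, and in such bulk RNA a smaller number of cells of one type and less RNA per cell cannot be told apart.

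TGF-betas, activins and BMPs are secreted dimers that bring together type I and type II receptor kinases at the cell surface. The type I receptor phosphorylates receptor-regulated Smads, Smad2 and Smad3 after TGF-beta or activin and Smad1, Smad5 and Smad9 after BMP, which enter the nucleus with Smad4. Signalling is held back outside the cell by latent complexes and by antagonists that bind the ligand, and inside the cell by Smad6, Smad7, ubiquitin ligases and co-repressors. In mesenchymal cells the TGF-beta branch is known for matrix production and the BMP branch for bone, cartilage and fat differentiation.

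Nt5e, the gene of CD73 itself, read 7.29, 6.39 and 6.84 on the log2 scale in the CD73- arrays and 7.84, 7.60 and 7.74 in the CD73+ arrays, without overlap. The difference was 0.88 with a standard error (SE) of 0.20 and an adjusted p of 0.0218 from limma. The call was lost when CD73- replicate 3 (adjusted p = 0.0569), CD73+ replicate 1 (adjusted p = 0.0763) or CD73+ replicate 3 (adjusted p = 0.0563) was left out, while the other Nt5e probe sets differed by 0.033 and -0.12 and did not pass.

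The 6 arrays had medians between 5.277 and 5.369 on the log2 scale, and the correlation across probe sets was 0.9967 to 0.9982 within a subgroup and 0.9926 to 0.9934 between the subgroups. All but 1 of the 9 stromal markers measured were above the array median, and 5 of 9 were higher in the CD73+ cells, with the log2 of their summed signal at 13.04 to 13.06 in CD73- and 13.44 to 13.47 in CD73+ arrays. Over all genes measured, 10.1% were higher and 12.6% lower in CD73+ cells. Of 10 leukocyte markers, Csf1r (0.49) and Cd14 (0.50) were higher in CD73+ cells, with summed signals of 8.67 to 8.79 against 8.90 to 8.99. Ptprc, which defines leukocytes, was 1 of 4 of these markers below the array median. None was lower with limma after adjustment. At an unadjusted p under 0.05, 1 was lower by limma and by the methods' t-test, which was Fcer1g (-0.29). Of 8 mesothelial and epithelial markers 1, the dim Msln, was higher (0.61), with summed signals of 7.69 to 7.88 in CD73- and 7.89 to 8.02 in CD73+ arrays. None of 8 endothelial, 8 pericyte and smooth muscle and 4 Schwann cell markers passed with limma on its brightest probe set, and at an unadjusted p under 0.05 these counts were 0, 3 and 1 (0, 2 and 1 by the methods' t-test). On dimmer probe sets the smooth muscle gene Acta2 was higher (0.79 and 0.46) and Cspg4 lower (-0.53). Of 6 adipocyte markers Pparg was lower (-0.24), and on dimmer probe sets Lpl was lower (-0.49) while Fabp4 was higher (1.78 and 0.98), the first of these at a mean of 3.80 in CD73- and 5.58 in CD73+ arrays. The log2 ratio of the 3' to the 5' beta-actin control probe sets, which is lower in more intact RNA, was 0.19 ± 0.028 in CD73- arrays (SD, n = 3) and 0.084 ± 0.014 in CD73+ arrays, and that of Gapdh was -0.30 ± 0.023 and -0.27 ± 0.035. The part of these differences in the results that follow was not tested. The poly-A control RNAs that are added during sample preparation differed by -0.9265 on the log2 scale between CD73+ and CD73- arrays, as a mean over 12 probe sets. Scaling to them would move the median difference of all probe sets from -0.0001867 to 0.9263 and turn each fall given here for a brightest probe set into a rise, so that all differences that follow are relative to the bulk of the transcripts.

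Of the 50 genes measured, 17 had a higher and 5 a lower signal in the CD73+ subgroup (limma, adjusted p under 0.05), whereas 28 did not pass (with the poly-A scaling, 50 were higher). These counts are 34.0% and 10.0% of the members, where 22.8% of all genes passed (10.1% higher and 12.6% lower). The median difference over the members was 0.12 and over all genes -0.0176. The 6 values of a gene did not overlap between subgroups for 34 members (68.0%), against 40.8% of all genes. A difference of at least 0.5 that passed was found in 10 members (20.0%), all of them rises, against 5.93% of all genes in either direction. Of the 17 rises, 14 lay among the TGF-beta ligands and receptors, the latent binding proteins, the secreted antagonists and the Id genes. In contrast, none of the 6 BMP and GDF ligands passed with limma, and at an unadjusted p under 0.05 the count was 0 by limma and by the methods' t-test. The 7 members whose mean signal was below the median of all probe sets, which were Bmp2, Bmp6, Bmp7, Gdf5, Gdf10, Smad9 and Nog, did not pass either. The shares of all genes were not matched to the members for signal level. In a limma fit to the 22519 probe sets at or above that median, 5181 were higher and 5111 lower. Calls were thus more frequent there than over all probe sets, of which 18.9% passed.

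**Figure D1:**
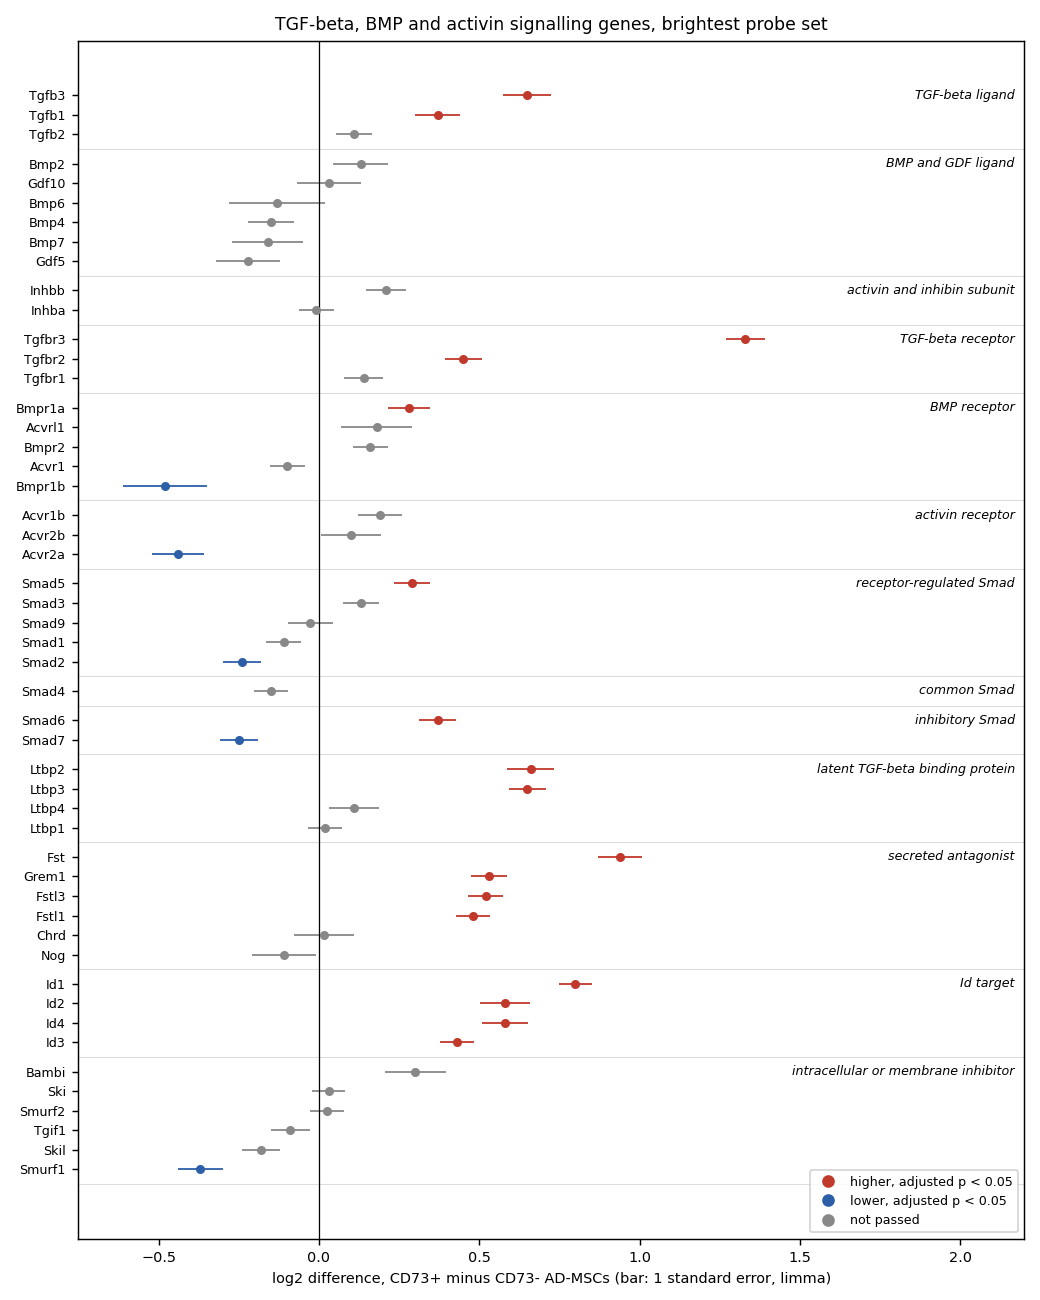
Log2 difference (CD73+ minus CD73-) of the brightest probe set of 50 pathway genes, grouped by role, with bars of 1 standard error from limma and colours for the call. The 17 red points lie from 0.28 to 1.33, with Tgfbr3 farthest to the right, and the 5 blue points lie from -0.48 to -0.24. With scaling to the poly-A controls the 5 blue points would lie above 0.

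Among the TGF-beta ligands, Tgfb1 and Tgfb3 were higher in CD73+ cells and Tgfb2 did not pass on its brightest probe set. Tgfb3, the isoform best known from palate closure and scar-poor healing, read 6.23, 6.49 and 6.36 in the CD73- arrays and 7.02, 6.98 and 7.01 in the CD73+ arrays. All 3 CD73+ values were above all CD73- values, and the CD73+ arrays were the tighter group. Its log2 difference was 0.65 (SE 0.075, adjusted p = 0.00137, limma). Tgfb1, the isoform most widely produced by stromal and blood cells, read 5.74, 5.76 and 5.61 in CD73- and 6.13, 5.99 and 6.09 in CD73+ arrays. The groups did not overlap, and the difference was 0.37 (SE 0.069, adjusted p = 0.00983). The second Tgfb1 probe set was dim and differed by 0.059 without passing. For Tgfb2 the brightest probe set differed by 0.11 (adjusted p = 0.233), and 1 of its other probe sets passed with 0.28.

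The BMP and GDF ligands did not differ at the threshold, and 5 of the 6 measured were below the array median. Their differences ranged from -0.22 for Gdf5, a joint and cartilage factor, to 0.13 for Bmp2, an inducer of bone. Bmp4, a factor of mesoderm patterning and fat commitment, was the one above the array median. It read 6.72, 6.82 and 6.62 in the CD73- arrays and 6.61, 6.49 and 6.60 in the CD73+ arrays. The groups lay side by side with almost no gap, and the difference of -0.15 (SE 0.072) had an adjusted p of 0.207. Bmp6, Bmp7 and Gdf10 gave -0.13, -0.16 and 0.031, each with overlapping groups.

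The activin genes did not pass, and 1 of the 2 was under an unadjusted p of 0.05 by limma and by the methods' t-test. Inhba, the subunit of activin A, read 9.75, 9.76 and 9.76 in the CD73- arrays and 9.78, 9.69 and 9.77 in the CD73+ arrays. These values overlapped, with a difference of -0.0085 (SE 0.055, adjusted p = 0.944). Inhbb, the subunit of activin B, did not overlap between subgroups and differed by 0.21 with an adjusted p of 0.0553. Inhbb passed under quantile normalization (adjusted p = 0.0239), cyclic loess (0.0249), a filter on dim probe sets (0.0151), a trended prior (0.00521) and array weights (0.0316).

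Ltbp2 and Ltbp3 were higher in CD73+ cells, while Ltbp1 and Ltbp4 did not pass. Latent TGF-beta binding proteins tether the inactive ligand to the matrix. Ltbp3, which forms such complexes, read 10.05, 10.00 and 10.02 in CD73- and 10.73, 10.61 and 10.69 in CD73+ arrays. The difference was 0.65 (SE 0.058, adjusted p = 0.000487), and every probe set of the gene was higher. Ltbp2 differs from the rest of the family in that it is a matrix protein of elastic fibres not known to hold latent TGF-beta. It read 8.49, 8.63 and 8.42 in CD73- and 9.12, 9.22 and 9.17 in CD73+ arrays, without overlap. The difference was 0.66 (SE 0.072, adjusted p = 0.00107). Ltbp1, the main carrier of latent TGF-beta1 in fibroblasts, read 9.70, 9.77 and 9.71 in the CD73- arrays and 9.75, 9.75 and 9.74 in the CD73+ arrays. Its groups overlapped and its difference was 0.018 (SE 0.053, adjusted p = 0.871), and Ltbp4 differed by 0.11.

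**Figure D2:**
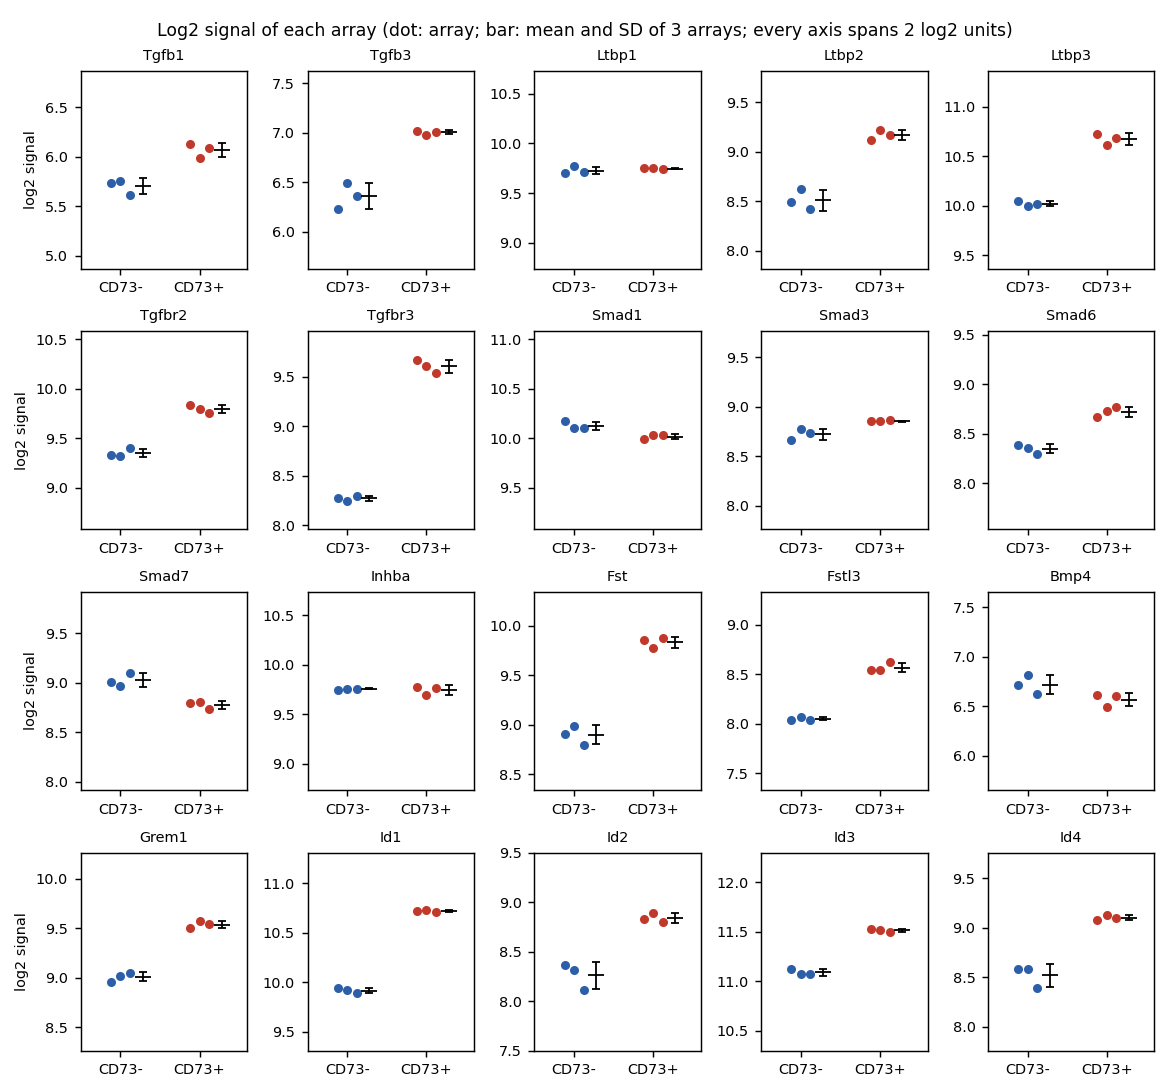
Log2 signal of each array (dots, n = 3 per subgroup) for 20 genes named with their values, with the mean and SD beside the dots and every vertical axis spanning 2 log2 units. The subgroups are apart for Tgfb1, Tgfb3, Ltbp2, Ltbp3, Tgfbr2, Tgfbr3, Fst, Fstl3, Grem1 and the Id genes and overlap for Inhba and Ltbp1. They are apart as well for Smad1, Smad3, Smad6, Smad7 and Bmp4, with almost no gap for Bmp4. Under scaling to the poly-A controls the lower CD73+ values of Smad7, Smad1 and Bmp4 would be higher ones.

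Of the receptors, Tgfbr3 and Tgfbr2 were higher in CD73+ cells, and Tgfbr3 had the largest difference among the 50 genes. Tgfbr3, or betaglycan, is a membrane proteoglycan that presents TGF-beta to the signalling receptors and also binds inhibin. It read 8.28, 8.25 and 8.30 in the CD73- arrays and 9.67, 9.61 and 9.54 in the CD73+ arrays. The subgroups were separated by more than 1 log2 unit, with a difference of 1.33 (SE 0.06, adjusted p = 8.59e-05). Its second probe set differed by 0.22 and did not pass. Tgfbr2, the type II receptor that binds TGF-beta first, read 9.33, 9.32 and 9.40 in CD73- and 9.84, 9.80 and 9.76 in CD73+ arrays. The difference was 0.45 (SE 0.057, adjusted p = 0.00185) on this probe set, whereas its other probe sets did not pass and the mean over all of them gave 0.11 with an adjusted p of 0.144. Tgfbr1, the type I partner, gave 0.14 on its brightest probe set without passing, and its other probe sets passed in opposite directions relative to the bulk of transcripts (-0.45 and 0.45), so that no direction is given for it.

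BMP and activin receptors moved in both directions. Bmpr1a, a type I receptor for BMP2 and BMP4, was higher by 0.28 (SE 0.065, adjusted p = 0.0213), while its other probe sets did not pass. The Bmpr1a call was lost without CD73- replicate 1 (0.27, adjusted p = 0.0708), CD73- replicate 2 (0.30, adjusted p = 0.0537), CD73+ replicate 1 (0.27, adjusted p = 0.0852) or CD73+ replicate 2 (0.25, adjusted p = 0.0833). Bmpr1b, the type I receptor of cartilage condensation, was lower, with values of 6.84, 6.89 and 6.72 against 6.51, 6.45 and 6.03. The groups did not overlap although CD73+ replicate 3 lay far below the other two, and the difference was -0.48 (SE 0.13, adjusted p = 0.0357). Without CD73- replicate 1 the adjusted p was 0.104, without CD73- replicate 2 it was 0.115, without CD73- replicate 3 it was 0.0535 and without CD73+ replicate 2 it was 0.0566, and with the methods' t-test after adjustment it was 0.148. Acvr2a, a type II receptor for activins and some BMPs, was lower (-0.44, SE 0.08, adjusted p = 0.0082), with no call on its second probe set (Bmpr1b and Acvr2a are higher with the poly-A scaling). The remaining receptors Bmpr2 (0.16), Acvr1 (-0.099), Acvrl1 (0.18), Acvr1b (0.19) and Acvr2b (0.10) did not pass. Acvr1b (0.0373) and Bmpr2 (0.0216) passed under the filter on dim probe sets, Bmpr2 also under a trended prior (0.00502) and the methods' t-test after adjustment (0.0298), and Acvrl1 passed without CD73+ replicate 3 (0.0478). For Bmpr2, the type II BMP receptor, 1 dimmer probe set was lower (-0.47) and passed.

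Of the 5 receptor-regulated Smads 1 rose and 1 fell, and so did the 2 inhibitory Smads, with both falls turning to rises under the poly-A scaling. Smad6, which blocks mainly the BMP branch, read 8.39, 8.36 and 8.30 in CD73- and 8.67, 8.73 and 8.77 in CD73+ arrays, a difference of 0.37 (SE 0.058, adjusted p = 0.00439). Smad7, which blocks TGF-beta receptors as well, read 9.01, 8.97 and 9.10 in CD73- and 8.79, 8.80 and 8.73 in CD73+ arrays, a difference of -0.25 (SE 0.06, adjusted p = 0.024) that turns positive with the poly-A scaling. The 2 inhibitory Smads thus differed in opposite directions relative to the bulk of transcripts, with no overlap between subgroups in either gene. The Smad7 call was lost when any array except CD73- replicate 2 was left out, with adjusted p from 0.055 to 0.0735. Smad1 read 10.17, 10.10 and 10.10 against 9.99, 10.03 and 10.03 and did not pass (-0.11, adjusted p = 0.251), and Smad3 read 8.66, 8.77 and 8.73 against 8.85, 8.85 and 8.86 and did not pass (0.13, adjusted p = 0.162). Smad4, the partner shared by both branches, differed by -0.15 (adjusted p = 0.108) and Smad9 by -0.027, neither passing. Smad4 passed under the filter on dim probe sets (0.0255), a trended prior (0.00527) and the methods' t-test after adjustment (0.0224), and Smad3 under the filter (0.0495).

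Probe sets of Smad2 and Smad5 passed in both directions relative to the bulk of transcripts. The brightest Smad2 probe set was lower (-0.24, adjusted p = 0.0303) and another was higher (0.31). The Smad2 call on the brightest probe set was lost when CD73- replicate 1 or 2 or CD73+ replicate 1 or 2 was left out, with adjusted p from 0.0914 to 0.117. For Smad5 the brightest probe set was higher (0.29, SE 0.055, adjusted p = 0.00997), another was lower (-0.30), and the mean over all its probe sets gave 0.074 with an adjusted p of 0.407. Probe sets of 1 gene can lie in different transcripts or ends of a transcript, and which transcripts these probe sets read was not examined here.

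**Figure D3:**
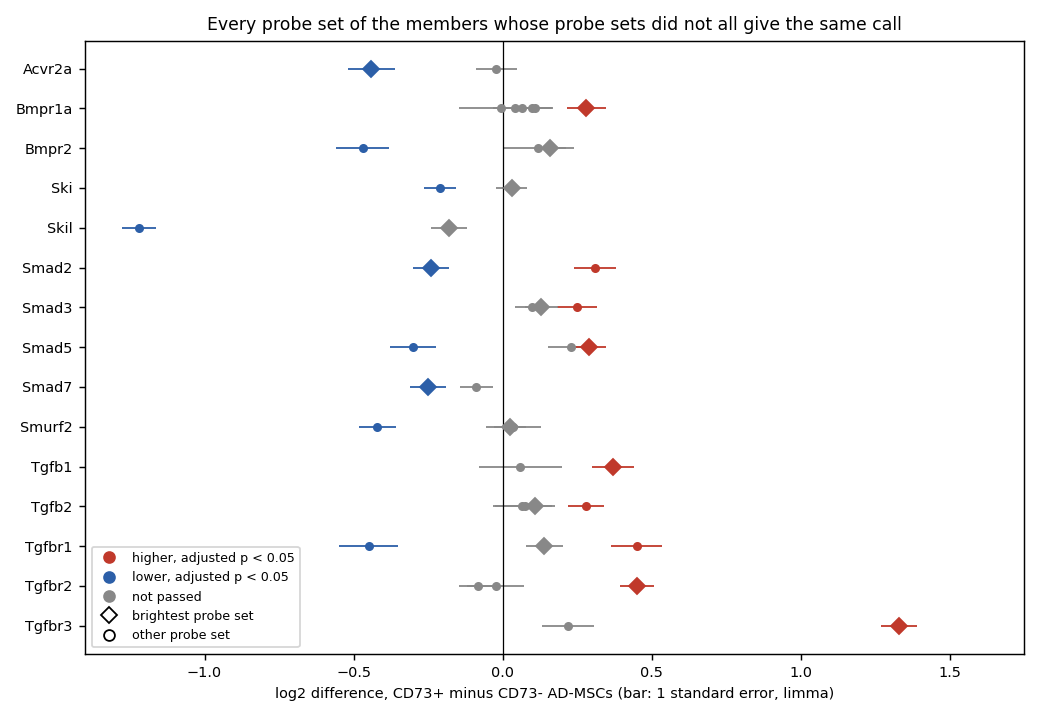
Log2 difference (CD73+ minus CD73-) of every probe set of the 15 genes whose probe sets did not give the same call, with bars of 1 standard error and diamonds for the brightest probe set. Smad2, Smad5 and Tgfbr1 have points past the threshold on both sides of 0, and the dimmer Skil probe set lies at -1.22. With scaling to the poly-A controls every point but that one would lie above 0.

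The members had 105 probe sets in all, of which 30 were higher and 14 were lower, where 18.9% of all probe sets passed (9.79% higher and 9.11% lower). Where a gene had more than 1 probe set, as 32 did, all of them passed in the same direction in 7, which were Bmpr1b, Fst, Fstl1, Id2, Id4, Ltbp3 and Smurf1. In 10 genes none passed. In 6 genes, which were Acvr2a, Bmpr1a, Smad7, Tgfb1, Tgfbr2 and Tgfbr3, the brightest probe set passed and at least 1 other did not. In 6 others, which were Bmpr2, Ski, Skil, Smad3, Smurf2 and Tgfb2, only a dimmer probe set passed. The 18 remaining genes had a single probe set.

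Of the 6 secreted antagonists, 4 were higher in CD73+ cells. Fst, or follistatin, which binds activins nearly irreversibly, read 8.91, 8.99 and 8.80 in the CD73- arrays and 9.85, 9.77 and 9.88 in the CD73+ arrays. The subgroups stood clear of each other, with a difference of 0.94 (SE 0.069, adjusted p = 0.000273), and every probe set of the gene was higher. Fstl3, a related activin-binding protein, read 8.04, 8.07 and 8.04 in CD73- and 8.54, 8.54 and 8.62 in CD73+ arrays. Its difference was 0.52 (SE 0.055, adjusted p = 0.000938). Grem1, or gremlin, an antagonist of BMP2 and BMP4 made by stromal cells, read 8.96, 9.02 and 9.05 in CD73- and 9.50, 9.57 and 9.54 in CD73+ arrays. Its difference was 0.53 (SE 0.056, adjusted p = 0.000942), again without overlap. Fstl1, a secreted glycoprotein of mesenchymal cells named for its follistatin-like domain, differed by 0.48 (SE 0.053, adjusted p = 0.00115). Noggin (Nog, -0.11) and chordin (Chrd, 0.016), which also trap BMPs, overlapped between the subgroups and did not pass.

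All 4 Id genes were higher in CD73+ AD-MSCs, each without overlap between the subgroups, and each call was kept when any 1 array was left out. Id proteins pair with basic helix-loop-helix transcription factors and keep them from DNA, and their genes are well-known early targets of BMP and Smad1 or Smad5. Id1 read 9.94, 9.92 and 9.89 in the CD73- arrays and 10.72, 10.73 and 10.71 in the CD73+ arrays. The spread within each subgroup was far smaller than the difference of 0.80 (SE 0.052, adjusted p = 0.000191). Id2 read 8.37, 8.31 and 8.11 in CD73- and 8.83, 8.89 and 8.80 in CD73+ arrays, a difference of 0.58 (SE 0.079, adjusted p = 0.00262). Id4 read 8.59, 8.59 and 8.39 in CD73- and 9.08, 9.13 and 9.10 in CD73+ arrays, a difference of 0.58 (SE 0.072, adjusted p = 0.00177). In both genes CD73- replicate 3 was the lowest array. Id3 read 11.13, 11.07 and 11.07 in CD73- and 11.53, 11.52 and 11.50 in CD73+ arrays, with a difference of 0.43 (SE 0.053, adjusted p = 0.00174).

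The 250 bases before the start of Grem1 and of the Id genes with a promoter entry are shown because these are a BMP antagonist and BMP targets among the members that rose. The sequences are RefSeq's on GRCm38.p6, 5′ to 3′ on the strand of the gene, and capitals mark the letters GGCGCC, as in a BMP-responsive Smad element, and CAGAC or its reverse complement GTCTG, which hold the Smad box. Grem1 lies on the minus strand (chr2:113758649-113758898), as does Id2 (chr12:25096093-25096342), and Id3 (chr4:136143572-136143821) and Id4 (chr13:48260866-48261115) lie on the plus strand.
Grem1: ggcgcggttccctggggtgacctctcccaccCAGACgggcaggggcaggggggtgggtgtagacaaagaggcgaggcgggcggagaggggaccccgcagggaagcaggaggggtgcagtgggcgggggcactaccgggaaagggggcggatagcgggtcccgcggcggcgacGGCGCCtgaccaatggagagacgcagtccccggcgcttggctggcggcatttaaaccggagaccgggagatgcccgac
Id2: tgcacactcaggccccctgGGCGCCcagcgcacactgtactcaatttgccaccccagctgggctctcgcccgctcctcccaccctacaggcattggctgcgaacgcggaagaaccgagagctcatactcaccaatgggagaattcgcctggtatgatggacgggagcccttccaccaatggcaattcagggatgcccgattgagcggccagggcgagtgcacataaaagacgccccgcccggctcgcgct
Id3: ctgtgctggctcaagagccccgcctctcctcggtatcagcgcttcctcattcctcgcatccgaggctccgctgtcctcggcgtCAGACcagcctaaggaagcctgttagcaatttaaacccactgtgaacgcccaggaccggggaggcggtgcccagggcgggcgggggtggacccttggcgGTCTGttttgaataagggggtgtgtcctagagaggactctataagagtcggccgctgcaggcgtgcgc
Id4: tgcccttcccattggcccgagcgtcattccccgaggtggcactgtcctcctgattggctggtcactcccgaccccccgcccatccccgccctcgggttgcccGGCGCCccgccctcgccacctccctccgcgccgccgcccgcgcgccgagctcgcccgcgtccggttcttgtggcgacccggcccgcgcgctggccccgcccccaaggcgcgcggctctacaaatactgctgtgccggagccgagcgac
In these windows GGCGCC began 78 bases upstream of the start in Grem1, 231 in Id2 and 148 in Id4, and Id3 held none. CAGAC began 219 bases upstream in Grem1 and 167 in Id3, where GTCTG began 68 bases upstream, and no match overlapped another. A promoter entry was found for 36 of the 51 members, with 48 windows. GGCGCC, which reads the same on both strands, was in 13 of the 48 windows (27.1%), against 9.59% of the 32851 windows of all genes. CAGAC, searched on both strands, was in 22 of 48 (45.8%), against 42.2%. The windows of all genes were not matched to those of the members for base composition. Such matches describe the letters in a window and not a bound site.

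Among the inhibitors inside the cell and in its membrane, Smurf1 was the single member of 6 to pass on its brightest probe set. Smurf1, a ubiquitin ligase that marks BMP Smads and receptors for breakdown, was lower (-0.37, SE 0.071, adjusted p = 0.0105), also on its second probe set (-0.78), and is higher with the poly-A scaling. Bambi, a pseudoreceptor without kinase activity, differed by 0.30 without overlap and missed the threshold (adjusted p = 0.0651). It passed under the filter on dim probe sets (0.0262), a trended prior (0.0165) and array weights (0.0272). Bambi has a single probe set, and its adjusted p was 0.0467 when limma was fitted and adjusted over genes in place of probe sets. Skil, a Smad co-repressor whose transcript is itself raised by TGF-beta, differed by -0.18 (adjusted p = 0.0751) on its brightest probe set, and passed under the filter (0.0203), a trended prior (0.00379) and array weights (0.0496). It also passed, as lower, with the mean of its probe sets. A dimmer Skil probe set was lower (-1.22) and passed, and with the poly-A scaling it stayed below 0 (-0.29). Smurf2 (0.025), Tgif1 (-0.089) and Ski (0.03) did not pass on their brightest probe sets, although a dimmer one was lower in Smurf2 (-0.42) and Ski (-0.21).

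Ratios of 2 transcripts on the same array do not move when a whole array is scaled, and 6 pairs were compared in this way. The level of such a ratio depends on both probe sets and only its change between subgroups is read. The log2 ratio of Inhba to Fst was 0.84, 0.77 and 0.97 in the CD73- arrays and -0.07, -0.08 and -0.11 in the CD73+ arrays, a change of -0.94. That of Bmp4 to Grem1 was -2.24, -2.20 and -2.43 in CD73- and -2.89, -3.08 and -2.94 in CD73+ arrays, a change of -0.68. In both pairs the signal of the ligand relative to that of its antagonist was lower in every CD73+ array than in every CD73- array. These changes lie mostly in the antagonists, Fst (0.94) and Grem1 (0.53). The ligands Inhba (-0.0085) and Bmp4 (-0.15) did not pass, so that the ratios restate the rises given above. The ratio of Tgfbr2 to Tgfbr3 changed by -0.88, from 1.05, 1.08 and 1.10 to 0.17, 0.19 and 0.22, and that of Smad1 to Smad6 by -0.48, from 1.78, 1.73 and 1.81 to 1.31, 1.31 and 1.27. The ratio of Tgfb1 to Ltbp1 changed by 0.35, from -3.96, -4.00 and -4.11 to -3.62, -3.76 and -3.65. With the mean of all probe sets of each gene this change was 0.10, with an exact permutation p of 0.3. That of Smad3 to Smad7 changed by 0.39, from -0.35, -0.20 and -0.37 to 0.06, 0.05 and 0.13. No pair overlapped between subgroups. On the brightest probe sets the two-sided exact permutation p was 0.1 for each pair, and 0.1 after Benjamini-Hochberg adjustment over the 6, which is the smallest that 3 arrays against 3 can give, so that none of these changes could reach 0.05.

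**Figure D4:**
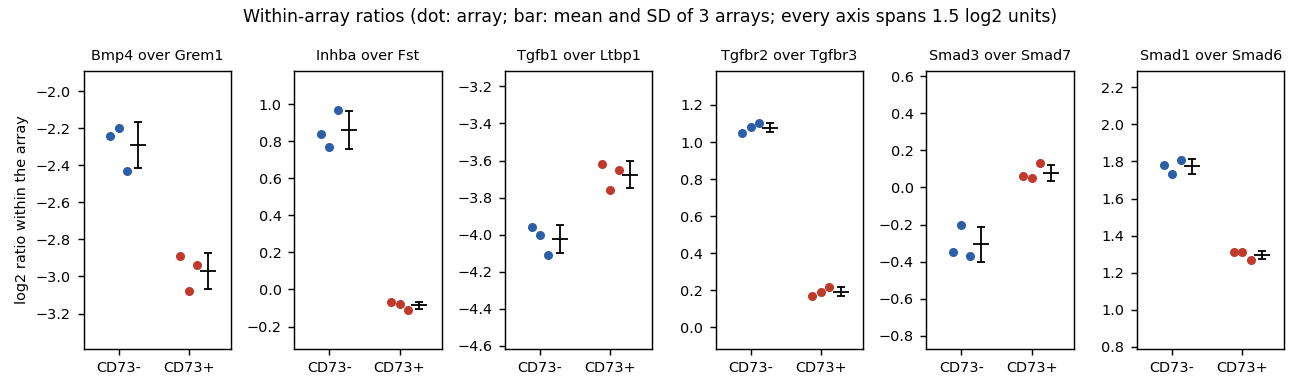
Log2 ratio of 2 genes on the same array (dots, n = 3 per subgroup) for 6 pairs, with the mean and SD beside the dots and every vertical axis spanning 1.5 log2 units. In the CD73+ arrays the ratios of Bmp4 to Grem1, Inhba to Fst, Tgfbr2 to Tgfbr3 and Smad1 to Smad6 are lower and those of Tgfb1 to Ltbp1 and Smad3 to Smad7 higher, with no overlap.

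A further 115 genes of the pathway were listed, of which 105 were measured, and 27 of them were higher (25.7%) and 14 lower (13.3%) in CD73+ cells, with a median of 0.038, where 10.1% of all genes were higher and 12.6% lower. The share of lower calls was thus near that of all genes, and it fell to 5 genes with the replicate block, without CD73- replicate 2 or without CD73+ replicate 1. With the poly-A scaling all 105 were higher. Among the 24 measured genes that TGF-beta is known to induce, 13 were higher (54.2%) and 2 lower (8.33%), against the same 10.1% and 12.6% of all genes. None of these 24 was below the array median, so that the shares of all genes were not matched to them for signal level. With the filter on dim probe sets, 13 of the 24 were higher and 3 lower, beside 5181 higher and 5111 lower of 22519 probe sets. Tgfbi, a secreted matrix protein, was the farthest, at 6.19, 6.11 and 6.22 in CD73- and 8.25, 8.43 and 8.26 in CD73+ arrays (2.14, SE 0.072, adjusted p = 3.36e-05). The fibrillar collagens Col1a1 (0.85) and Col3a1 (0.78) came next. Zeb2, a transcription factor of the mesenchymal state (-0.29), and Ccn2, or connective tissue growth factor (-0.27), were lower, and are higher with the poly-A scaling. The Zeb2 call was lost in 4 of the 6 fits that left out an array, those without CD73- replicates 1 and 2 and CD73+ replicates 1 and 3 (adjusted p from 0.0544 to 0.0864), and the Ccn2 call without CD73+ replicate 1 (adjusted p = 0.0533). Over all 55 probe sets of the list 31 were higher and 4 lower, where 9.79% of all probe sets were higher and 9.11% lower. A dimmer Snai2 probe set was lower (-0.29). The list does not hold every gene that TGF-beta induces. Skil, raised by TGF-beta as given above, was counted elsewhere and gave -0.18 without passing. Smad7 (-0.25), Pmepa1 (-0.28) and Ldlrad4 (-0.39) were counted elsewhere too, and were lower relative to the bulk of the transcripts.

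Of the 27 co-receptors and extracellular regulators measured, 10 were higher (37.0%) and none lower on the brightest probe set, by limma, by its unadjusted p or by the methods' t-test. By limma 10.1% of all genes were higher and 12.6% lower, again not matched for signal level. On dimmer probe sets Itgav, an integrin subunit counted among the 10 with 0.21, was lower (-0.70), and so was Sostdc1, a BMP antagonist (-0.25). Bmper (0.55) and Twsg1 (0.39) were among the 10 as well. Decorin (Dcn, 1.24) and fibromodulin (Fmod, 1.04), proteoglycans that bind TGF-beta in the matrix, and Emilin1 (0.93), which holds back the processing of the TGF-beta precursor, had the largest rises. Col1a1 and Dcn are stromal markers too, and as given above 5 of 9 such markers were higher in the CD73+ cells. By contrast, of 25 intracellular regulators none was higher and 11 were lower (44.0%, against 12.6% of all genes) by limma on the brightest probe set. None of the 25 was below the array median. At an unadjusted p under 0.05, 2 were higher by limma and 1 by the methods' t-test, which kept that 1 after adjustment. The 11 fell to 4 with the replicate block and to between 3 (without CD73- replicate 2) and 8 (without CD73- replicate 3) when 1 array was left out, with 7 without CD73- replicate 1, 4 without CD73+ replicate 1, 5 without CD73+ replicate 2 and 6 without CD73+ replicate 3. Over all 79 probe sets of the list 19 were lower and 5 higher, where 9.11% of all probe sets were lower and 9.79% higher. In 4 genes, Crebbp, Ldlrad4, Map3k7 and Strap, probe sets passed in both directions relative to the bulk of the transcripts. The 11 lower genes included Wwp1, a ubiquitin ligase (-0.46), and Ppm1a, a phosphatase of activated Smads (-0.42). Ldlrad4, a membrane protein that keeps Smads from the receptor, was lower too (-0.39). These 3 had the largest falls, and each is higher with the poly-A scaling. The rest of the 11 were Crebbp (-0.29), Pmepa1 (-0.28), Zfyve16 (-0.28), Hgs (-0.26), Usp15 (-0.26), Nedd4l (-0.21), Strap (-0.20) and Tab2 (-0.20). The list mixes genes that assist Smad signalling with genes that restrain it, and no direction of signalling is read from it. With the mean over all probe sets of the gene, Wwp1 gave -0.076 and Ldlrad4 gave -0.022, and neither passed.

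Of the 14 BMP-induced genes outside the Id family, 6 were below the array median, against 0 of the 24 TGF-beta-induced genes, and 3 were higher (21.4%) and 1 lower (7.14%). Of all genes 10.1% were higher and 12.6% lower. On a dimmer probe set Sox9 was higher (0.64), while its brightest gave -0.16 and did not pass. Atoh8 (0.41), a helix-loop-helix factor, Hes1 (0.37), which is better known as a Notch target, and Gata2 (0.24) were higher, and Gata3 (-0.46) was lower relative to the bulk of the transcripts and higher with the poly-A scaling. The Gata2 call was lost when any array except CD73- replicate 3 was left out (adjusted p from 0.0584 to 0.0937) and under median centring (0.0699). The Hes1 call was lost without CD73+ replicate 1 (adjusted p = 0.0556) or CD73+ replicate 2 (adjusted p = 0.0529). Of 15 other ligands, Bmp1 was the single one to pass (0.61, SE 0.052, adjusted p = 0.000427). Bmp1 is a metalloprotease that trims procollagen and chordin, and not a member of the BMP ligand family.

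**Figure D5:**
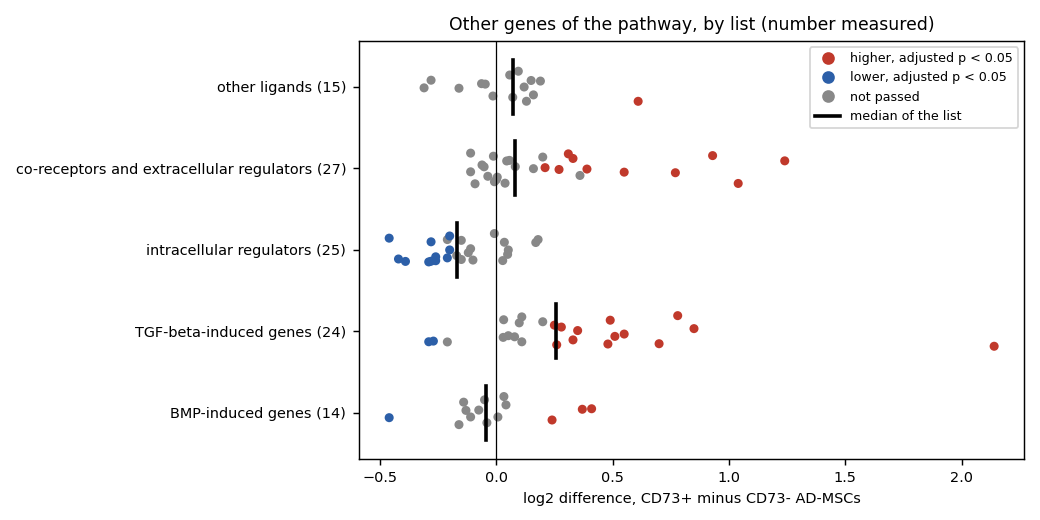
Log2 difference (CD73+ minus CD73-) of 105 other pathway genes by list, with 1 point a gene, colours for the limma call and list medians as short vertical black lines. On the brightest probe set, the intracellular regulators have blue points and no red ones, the co-receptors and extracellular regulators have red points and no blue ones, and Tgfbi lies farthest to the right at 2.14. With scaling to the poly-A controls every point would lie above 0.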

How the data were processed

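Total RNA of 3 CD73+ and 3 CD73- AD-MSC samples was measured on Affymetrix mouse expression arrays. The values deposited by the authors are on the log2 scale, for 45101 probe sets, and were made with RMA according to the submitters' processing notes. Its version is not given in the sources used here. RMA makes the distributions of the arrays nearly alike, so that a change common to most transcripts is lost and small differences can be compressed. Groups and replicate numbers were taken from the sample titles.

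After 64 control probe sets were set aside, a linear model without covariates or filter was fitted to the other 45037 (R 4.3.3, package limma 3.58.1, lmFit with default eBayes). P-values were adjusted by Benjamini-Hochberg over the 45037 and called under 0.05. The paper names one-way ANOVA for the study in general, which for 2 groups is the t-test called the methods' t-test here. In the platform annotation 34945 probe sets carry 1 gene symbol, 932 carry several and 9160 are unnamed here. The brightest 1-symbol probe set, by its mean over the 6 arrays, stands for the gene. No detection calls were used, and a gene was called dim when that mean was below the median of all probe sets. Precision is limited by the number of arrays (pooled within-subgroup SD, median 0.1009). Its script was first tested on simulated data.

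The members, the other pathway genes, the markers and the pairs were chosen with earlier results of these data known. Values of every array are given for members that passed with a difference of at least 0.5, for the compared pairs and for the Id genes, and those of Bmpr1b and Tgfbi were added after they had been seen. Up to 3 rises and 3 falls are named for each list of other pathway genes. Alternatives were quantile, cyclic loess or median centring between arrays, scaling to the poly-A controls, the replicate number as a block, a filter at the median level, array weights, a robust or trended prior, the methods' t-test, the mean of all probe sets of a gene, and leaving out each array. Same-numbered arrays of the subgroups did not deviate together (correlations of -0.138, 0.0276 and -0.136), so the numbers were not used as pairs. Promoter windows were read from a RefSeq table on GRCm38.p6, and matplotlib 3.10.9 (Python 3.11.15) drew the figures.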

Additional observations from a re-analysis of the deposited data

How the results depend on the processing

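Of the 22 members that passed, 18 kept their call when any 1 array was left out, and Bmpr1a, Bmpr1b, Smad2 and Smad7 did not. The 22 calls were kept under quantile normalization, median centring, cyclic loess, the filter, the trended and robust priors and array weights, and none of the 6 ratios changed sign in any alternative, although the change of Tgfb1 over Ltbp1 fell from 0.35 to 0.10 (exact permutation p = 0.3) with the mean of all probe sets. The mean of all probe sets kept 18 of the 22 calls. It ended those of Tgfbr2, Bmpr1a and Smad5 and turned the difference of Smad2, while Bambi and Skil were newly called. With 3 arrays a subgroup and no scanner files used here, probe level background could not be examined.

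Scaling to the poly-A controls made 44707 probe sets higher and 33 lower, 50 members higher and 0 lower, and 105 other pathway genes higher and 0 lower. It turned the differences of Bmp4 (0.77), Bmp6 (0.79), Bmp7 (0.77), Gdf5 (0.71), Inhba (0.92), Bmpr1b (0.44), Acvr1 (0.83), Acvr2a (0.49), Smad1 (0.82), Smad2 (0.69), Smad9 (0.90), Smad4 (0.78), Smad7 (0.67), Nog (0.81), Smurf1 (0.56), Tgif1 (0.84), Skil (0.74), Wwp1 (0.47), Ppm1a (0.51), Ldlrad4 (0.54), Zeb2 (0.64), Ccn2 (0.66) and Gata3 (0.47), by the construction of that scaling. The mean of all probe sets turned Bmpr2 (-0.064), Acvr2b (-0.039), Smad2 (0.035), Smad4 (0.020), Smurf2 (-0.12) and Ski (-0.088). Median centring turned Gdf10 (-0.0014), Ltbp1 (-0.014), Chrd (-0.016), Smurf2 (-0.0070) and Ski (-0.0022), quantile normalization Inhba (0.011) and Chrd (-0.033), and cyclic loess Inhba (0.013) and Chrd (-0.010). Leaving out 1 array turned Bmp6 (range -0.24 to 0.029), Gdf10 (-0.042 to 0.15), Inhba (-0.024 to 0.018), Smad9 (-0.075 to 0.015) and Chrd (-0.077 to 0.065). Of these genes, Bmpr1b, Acvr2a, Smad2, Smad7, Smurf1, Wwp1, Ppm1a, Ldlrad4, Zeb2, Ccn2 and Gata3 had passed.

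The replicate block left 2713 lower probe sets, 3 lower members and 5 lower other pathway genes, and among the members it ended the calls of Bmpr1a, Smad2 and Smad7. Not every array correlated best with its own number, and for the ratios the smallest p that 3 pairs allow is 0.25. The methods' t-test without adjustment gave 6188 lower probe sets and 24 higher and 9 lower members, and after Benjamini-Hochberg adjustment 3494 higher and 3370 lower probe sets, with the Bmpr1b call lost and Bmpr2 and Smad4 newly called. Leaving out each array gave 2794 to 4199 higher and 2525 to 3907 lower probe sets, 16 to 18 higher and 2 to 4 lower members, and 20 to 27 higher and 5 to 11 lower other pathway genes. The lowest counts of lower members, 2, came without CD73- replicate 1 or CD73+ replicate 2. For all probe sets the lowest counts came without CD73+ replicate 1, where the other pathway genes had 5 lower, as they did without CD73- replicate 2. For Nt5e the methods' t-test after adjustment gave 0.88 (adjusted p = 0.127), the mean of its probe sets 0.27 (adjusted p = 0.101), and leaving out 1 array 0.66 to 1.11. Where no construction is named the cause was not tested.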
